A study of Homo sapiens with 18 samples.

Results

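Accessibility of chromatin was examined around 10 genes that carry the negative feedback and the transcriptional output of ERK signalling: the phosphatase genes DUSP4, DUSP5 and DUSP6, the Sprouty and SPRED genes SPRY2, SPRY4, SPRED1 and SPRED2, the ETS factor genes ETV4 and ETV5, and PHLDA1. The members are the regions of the deposited ATAC-seq table that overlap the body of one of these genes extended by 20 kb on both sides, with gene models from GENCODE release 44 on GRCh37 (hg19). They number 60 of 115087 regions, for 10 of the 18952 protein-coding genes with a region in the extended body. DUSP5 had 10 of them, SPRED2 17, SPRED1 8, ETV5 5, DUSP6, SPRY2 and PHLDA1 4 each, DUSP4 and SPRY4 3 each, and ETV4 2. Of the 60, 18 overlapped the 1 kb on either side of a start site of their own gene.

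The cells were 3 human head and neck squamous carcinoma lines: SCC25, UM-SCC-6 (called SCC6) and UM-SCC-1 (called SCC1). Each received either cetuximab, an antibody that blocks the receptor EGFR, at 100 nM daily, or PBS as the vehicle, for 5 days. The 17 libraries form 6 groups of 3 replicates, except SCC1 PBS with 2, since SCC1 PBS replicate 2 was not analysed here. Each line is a single model, and the labels do not say that replicates were separate cultures, so p-values measure the spread between these libraries, which may be technical. The libraries held 2194851 to 15017130 reads in regions. Epithelial markers (KRT5, KRT8, KRT18, TP63, EPCAM, CDH1) had regions at their start sites in the region set, which all lines share. Their lowest mean signal in any line was 23.4, for TP63 in SCC6. KRT14 had a mean signal of 1.74 in SCC6 against 57.7 in SCC1 and 34.0 in SCC25. PTPRC, CD3E and PECAM1, which mark blood and endothelium, had 0 regions.

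EGFR activates RAS, RAF, MEK and ERK in turn, and ERK in the nucleus switches on genes whose products restrain the same cascade. DUSP proteins remove phosphate from ERK, DUSP5 and DUSP4 in the nucleus and DUSP6 in the cytoplasm, while Sprouty and SPRED proteins act upstream, between the receptor and RAF. ETV4 and ETV5 are transcription factors induced by the cascade, PHLDA1 is an early response gene, and transcripts of these genes are widely used as a readout of ERK activity in epithelial tumours.

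Regions are named by the distance of their centre from the start site of the gene, upstream or downstream in the direction of transcription. Sequences are shown for 5 of them, each outside a start site. They are a choice among the regions called with cetuximab in SCC6. Some regions not shown had smaller adjusted p there than some of the 5. Among these were DUSP5 32.5 kb downstream (limma adjusted p = 7.55e-06) and PHLDA1 5.99 kb downstream (9.51e-05). The sequences are from GRCh37, plus strand, read 5′ to 3′. Capitals mark matches on either strand to the AP-1 motif TGANTCA, bound by FOS and JUN proteins, or to the TEAD motif GGAATG, bound by the partners of YAP. The matches do not overlap each other. For DUSP6 and SPRED2 the central 300 bases of a longer region are shown.
DUSP5, 3.95 kb upstream, in the non-coding gene DUSP5-DT, chr10:112253620-112253806: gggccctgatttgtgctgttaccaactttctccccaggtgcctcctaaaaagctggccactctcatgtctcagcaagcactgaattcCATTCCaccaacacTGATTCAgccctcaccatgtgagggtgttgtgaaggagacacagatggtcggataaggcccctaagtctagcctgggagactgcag
DUSP5, 3.48 kb downstream, in an intron of DUSP5, chr10:112261036-112261245: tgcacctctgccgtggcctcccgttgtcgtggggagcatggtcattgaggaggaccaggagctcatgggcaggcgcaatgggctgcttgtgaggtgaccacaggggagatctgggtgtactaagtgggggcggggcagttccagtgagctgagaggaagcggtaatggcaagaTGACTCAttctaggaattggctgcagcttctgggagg
DUSP5, 28.1 kb downstream, between genes, chr10:112285717-112285902: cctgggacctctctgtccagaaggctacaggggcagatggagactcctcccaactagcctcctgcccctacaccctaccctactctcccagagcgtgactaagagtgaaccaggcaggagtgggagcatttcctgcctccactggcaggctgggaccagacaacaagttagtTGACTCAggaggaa
DUSP6, 18.4 kb upstream, in the non-coding gene ENSG00000286608, chr12:89764522-89764821 of the region chr12:89764312-89765032: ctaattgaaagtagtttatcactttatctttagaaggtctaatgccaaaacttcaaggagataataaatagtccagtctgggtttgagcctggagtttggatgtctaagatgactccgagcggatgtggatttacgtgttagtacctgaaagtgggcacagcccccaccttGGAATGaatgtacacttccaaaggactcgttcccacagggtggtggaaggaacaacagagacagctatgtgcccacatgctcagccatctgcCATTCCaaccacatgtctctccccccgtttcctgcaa
SPRED2, 116 kb downstream, in an intron of SPRED2, chr2:65543418-65543717 of the region chr2:65543275-65543861: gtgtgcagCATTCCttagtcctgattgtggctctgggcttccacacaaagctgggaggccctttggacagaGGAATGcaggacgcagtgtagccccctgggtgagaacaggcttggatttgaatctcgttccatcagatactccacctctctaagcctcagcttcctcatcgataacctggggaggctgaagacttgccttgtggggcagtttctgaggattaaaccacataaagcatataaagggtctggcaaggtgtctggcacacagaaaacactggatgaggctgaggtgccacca
The 3 DUSP5 windows each held 1 AP-1 match, and the window 3.95 kb upstream also held 1 TEAD match. The DUSP6 and SPRED2 windows held 2 TEAD matches each and no AP-1 match. Such matches are common. Among windows of the same length cut from regions, 24.7% held an AP-1 match at 186 or 187 bases, 31.2% at 210 bases and 33.4% at 300 bases. For TEAD the shares were 15.6%, 19.1% and 23.2%. These windows numbered 98581 at 186 bases, 98313 at 187, 71299 at 210 and 47694 at 300. They thus leave out part of the regions, and a different part at each length. The ETS motif CCGGAA, the CRE motif TGACGTCA and the TFAP2 motif GCCNNNGGC had no match in these 5 windows, which says only that these letters are not in them. At these lengths 4.47% to 10.5%, 0.381% to 0.879% and 8.39% to 17.8% of windows held one.

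Accessibility around these genes differed between cetuximab and PBS libraries most often in SCC6. In SCC1, 7 of 52 tested member regions were lower and none was higher. In SCC6, 18 of 49 changed, 6 higher and 12 lower. In SCC25, 1 of 48 was lower. The comparison of treated and PBS libraries used limma on log2(signal + 1), over all regions but the lowest 25%, and a region counts as changed at an adjusted p (Benjamini-Hochberg, over all regions tested) under 0.05. Over all regions tested, 4.57% were higher and 6.56% lower in SCC1, 16.9% were higher and 10.6% lower in SCC6, and 0.0405% were higher and 0.275% lower in SCC25. Tested member regions had a median log2 change of −0.3 (SCC1), −0.16 (SCC6) and −0.21 (SCC25), against −0.091, 0.11 and −0.083 over all regions tested. In such bulk libraries, a change in every cell and a change in some of the cells cannot be told apart.

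These medians depend on how libraries are scaled. With each library centred on its median, the median change of all regions became 0.097 in SCC1 and −0.06 in SCC6, and member calls were 4 higher and 3 lower in SCC1 and 5 higher and 19 lower in SCC6. In SCC1, 19 of the 52 had an unadjusted p under 0.05 with limma, as did 20798 of all 86321 regions tested. At the adjusted threshold edgeR called 2 member regions higher and 7 lower, and DESeq2 1 higher and 3 lower. Shares over all regions with median centring, edgeR and DESeq2 are not given here. All 7 SCC1 calls were lost without SCC1 PBS replicate 3, which left 0, and 2 calls were made without SCC1 PBS replicate 1, while leaving out cetuximab replicate 1 gave 4 and leaving out cetuximab replicate 2 gave 13. The plot of changes by gene shows each tested region in each line.

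**Figure D1:**
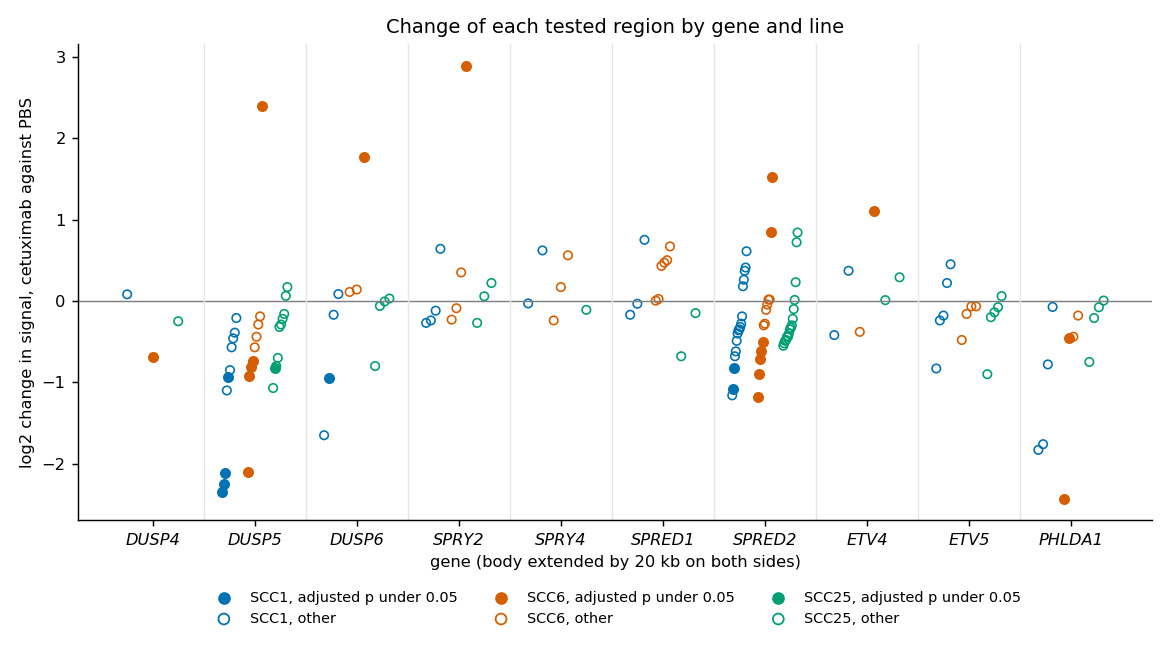
Log2 change in signal, cetuximab against PBS, at each tested region of the 10 genes (horizontal axis), coloured by line, with filled points for an adjusted p under 0.05 and open points otherwise. The filled points are 7 in SCC1, all below 0, 18 in SCC6, 6 above and 12 below 0, and 1 in SCC25, below 0, and the fitted values at SPRY2 9.17 kb upstream in SCC6 and DUSP5 12.2 kb upstream in SCC1 depend on the pseudocount, since 1 group there is near the floor of 1 read.

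DUSP6 (ENSG00000139318, chr12:89741012-89746278, minus strand) encodes the cytoplasmic ERK phosphatase and held the region with the smallest adjusted p of all members in SCC6. At the region 18.4 kb upstream of its start site the signal in SCC6 was 89.9, 76.1 and 89.3 with cetuximab and 23.0, 28.1 and 21.8 with PBS. In SCC1 it was 117, 130 and 98.6 with cetuximab and 196 and 252 with PBS. In SCC25 it was 132, 197 and 198 with cetuximab and 183, 162 and 177 with PBS. The treated libraries thus lay above all PBS libraries in SCC6 and below them in SCC1, and the groups overlapped in SCC25. The region rose 3.42-fold in SCC6 (log2 change 1.77 ± 0.24 SE, n = 3 and 3, limma adjusted p = 9.27e-08) and fell by 0.95 ± 0.22 on the log2 scale in SCC1 (1.94-fold lower, n = 3 and 2, limma adjusted p = 0.000703). In SCC25 the log2 change was −0.007 ± 0.15 (limma adjusted p = 0.989). The fall in SCC1 did not pass the test without SCC1 PBS replicate 3 (adjusted p = 0.156).

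The difference between lines was itself tested, as the interaction of line and treatment over all 17 libraries, with limma. It was called at 3 of 48 member regions, against 13.2% of all regions tested: DUSP6 18.4 kb upstream (adjusted p = 4.38e-07), SPRED2 116 kb downstream (adjusted p = 0.000107) and DUSP5 3.95 kb upstream (adjusted p = 0.000352). These 3 calls held under each of the 28 alternatives run. The number of called members was larger under several alternatives, up to 11 with edgeR and 10 with DESeq2.

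SPRED2 (ENSG00000198369, chr2:65537985-65659771, minus strand) encodes a membrane protein that restrains the activation of RAF by RAS. At the intronic region 116 kb downstream of its start site the SCC6 signal was 119, 103 and 119 with cetuximab and 25.4, 60.9 and 38.1 with PBS. In SCC1 it was 203, 173 and 180 against 215 and 209, and in SCC25 71.7, 87.3 and 76.2 against 101, 93.0 and 95. Treated libraries were above PBS libraries in SCC6 and below them in the other lines. The rise in SCC6 was 2.86-fold (log2 change 1.52 ± 0.23 SE, n = 3 and 3, limma adjusted p = 9.19e-07), and the log2 changes were −0.19 ± 0.2 in SCC1 (adjusted p = 0.599) and −0.3 ± 0.18 in SCC25 (adjusted p = 0.483).

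DUSP5 (ENSG00000138166, chr10:112257665-112271291, plus strand) encodes a nuclear ERK phosphatase, and its region 3.95 kb upstream was also called for the interaction. Its SCC6 signal was 19.2, 37.1 and 34.7 with cetuximab and 7.25, 3.35 and 4.35 with PBS, with no overlap. In SCC1 it was 60.9, 58.4 and 36.0 against 75.5 and 64.8, also with no overlap, and in SCC25 18.3, 42.3 and 31.9 against 39.2, 32.5 and 36.5. It rose 5.23-fold in SCC6 (log2 change 2.39 ± 0.43 SE, limma adjusted p = 2.81e-05), with −0.46 ± 0.31 in SCC1 (adjusted p = 0.378) and −0.29 ± 0.3 in SCC25 (adjusted p = 0.714). The SCC6 PBS libraries held 6, 5 and 4 reads at this region, so the size of the fold is uncertain.

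At all 3 regions the PBS level of SCC6 was the lowest of the lines. Against SCC1 PBS, the SCC6 PBS libraries were lower, with a log2 difference of −3.15 ± 0.18 at DUSP6 18.4 kb upstream (adjusted p = 3.37e-09), −2.41 ± 0.26 at SPRED2 116 kb downstream (adjusted p = 9.84e-07) and −3.62 ± 0.37 at DUSP5 3.95 kb upstream (adjusted p = 4.6e-07, limma). Against SCC6, the SCC25 PBS libraries were higher at the same regions by 2.8 ± 0.16 (adjusted p = 6.34e-10), 1.28 ± 0.23 (adjusted p = 0.000157) and 2.68 ± 0.33 (adjusted p = 2.74e-06). These comparisons share the SCC6 PBS libraries with the cetuximab comparison. The plot of signals by library shows the levels with and without treatment side by side.

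**Figure D2:**
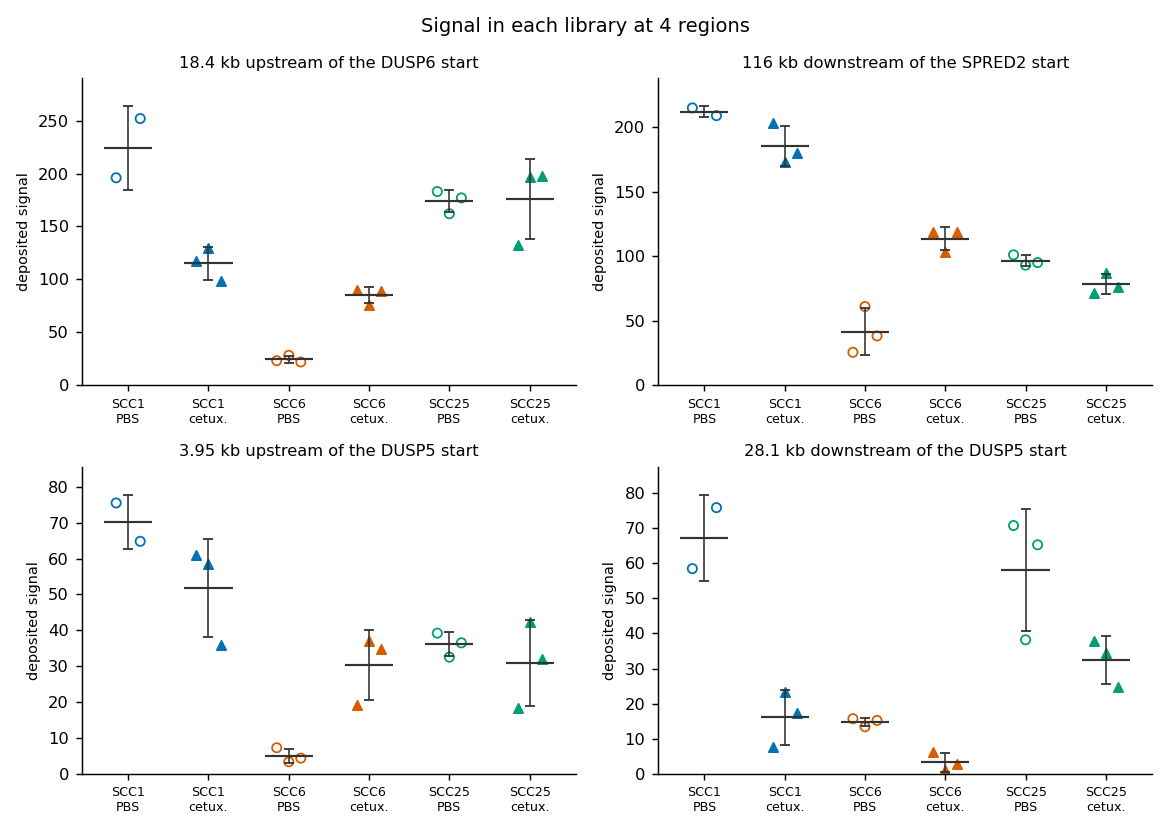
Deposited signal in each library at DUSP6 18.4 kb upstream, SPRED2 116 kb downstream, DUSP5 3.95 kb upstream and DUSP5 28.1 kb downstream, with PBS as open circles, cetuximab as filled triangles, and bars for the mean ± SD. In the first 3 panels the SCC6 triangles lie above the SCC6 circles with no overlap, and in the last panel triangles lie below circles in every line.

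Other DUSP5 regions were lower with cetuximab, in both SCC1 and SCC6. At the region 28.1 kb downstream of its start site the signal was 7.62, 23.4 and 17.2 with cetuximab and 58.5 and 75.9 with PBS in SCC1. In SCC6 it was 6.06, 0.928 and 2.64 against 15.7, 13.4 and 15.2, the 0.928 being the floor of 1 read. In SCC25 it was 38.0, 34.5 and 24.8 against 70.8, 38.2 and 65.3. Treated libraries were below PBS libraries in each line. The region fell by 2.11 ± 0.44 on the log2 scale in SCC1 (4.33-fold lower, limma adjusted p = 0.00016) and by 2.1 ± 0.6 in SCC6 (4.28-fold lower, adjusted p = 0.00654), and its change was −0.8 ± 0.27 in SCC25 (adjusted p = 0.184). The SCC1 call did not hold without SCC1 PBS replicate 3 (adjusted p = 0.0676), and the interaction did not pass the test (adjusted p = 0.228).

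The intronic DUSP5 region 3.48 kb downstream was lower in the same lines. Its signal was 36.8, 31.1 and 59.5 against 74.2 and 84.9 in SCC1, and 28.3, 40.8 and 26.4 against 71.3, 58.9 and 51.1 in SCC6, with no overlap in either. It fell by 0.94 ± 0.32 on the log2 scale in SCC1 (adjusted p = 0.0379) and by 0.92 ± 0.25 in SCC6 (adjusted p = 0.00443, limma). In SCC25 the values were 33.7, 35.8 and 42.5 against 48.2, 47.6 and 44.1, a change of −0.32 ± 0.24 (adjusted p = 0.599). The SCC1 call was lost under 11 of 17 alternatives, among them leaving out cetuximab replicate 1 (adjusted p = 0.119), cetuximab replicate 2 (0.0843), PBS replicate 1 (0.228) or PBS replicate 3 (0.332), and the SCC6 call with the GC trend removed (adjusted p = 0.0745).

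Farther downstream, DUSP5 32.5 kb downstream (chr10:112289911-112290433) fell in SCC6, where its signal was 134, 134 and 127 with cetuximab and 215, 226 and 219 with PBS (1.67-fold lower, log2 change −0.74 ± 0.12, limma adjusted p = 7.55e-06). The groups lay far apart relative to their spread. DUSP5 24.8 kb downstream (chr10:112282205-112282691) was the single called member in SCC25, with 59.1, 84.0 and 90.3 against 132, 140 and 135, again with no overlap. It fell by 0.82 ± 0.18 on the log2 scale (1.76-fold lower, adjusted p = 0.0398). That call held with libraries thinned to the same depth and was lost under 8 of 18 alternatives, among them leaving out cetuximab replicate 1 (adjusted p = 0.0775), PBS replicate 1 (0.219), PBS replicate 2 (0.248) or PBS replicate 3 (0.268). The same region had low signal in the other lines, 1.56 to 14.5 over the 11 SCC1 and SCC6 libraries.

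In SCC1 a pair of DUSP5 regions farther upstream, in DUSP5-DT, was also called lower. At 12.2 kb upstream the libraries held 2, 2 and 1 reads with cetuximab and 10 and 20 with PBS (limma adjusted p = 0.0366), and at 10.2 kb upstream 3, 5 and 3 against 25 and 26 (adjusted p = 0.0133). Neither is given a fold, since treated libraries are near the floor. Neither call held without SCC1 PBS replicate 1 (adjusted p = 0.196 and 0.278) or SCC1 PBS replicate 3 (adjusted p = 0.393 and 0.172), and the first was also lost without cetuximab replicate 1 (0.083) or 3 (0.0912). The first was lost as well with median centring (0.0549), without the filter (0.0647), with the GC trend removed (0.0816) and with thinned libraries (0.104). The start-site region of DUSP5, at exon 1, did not pass the test with limma in any line, with log2 changes of −0.21 ± 0.22 in SCC1, −0.29 ± 0.17 in SCC6 and 0.062 ± 0.17 in SCC25, and passed in SCC6 with median centring (−0.47, adjusted p = 0.0387).

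**Figure D3:**
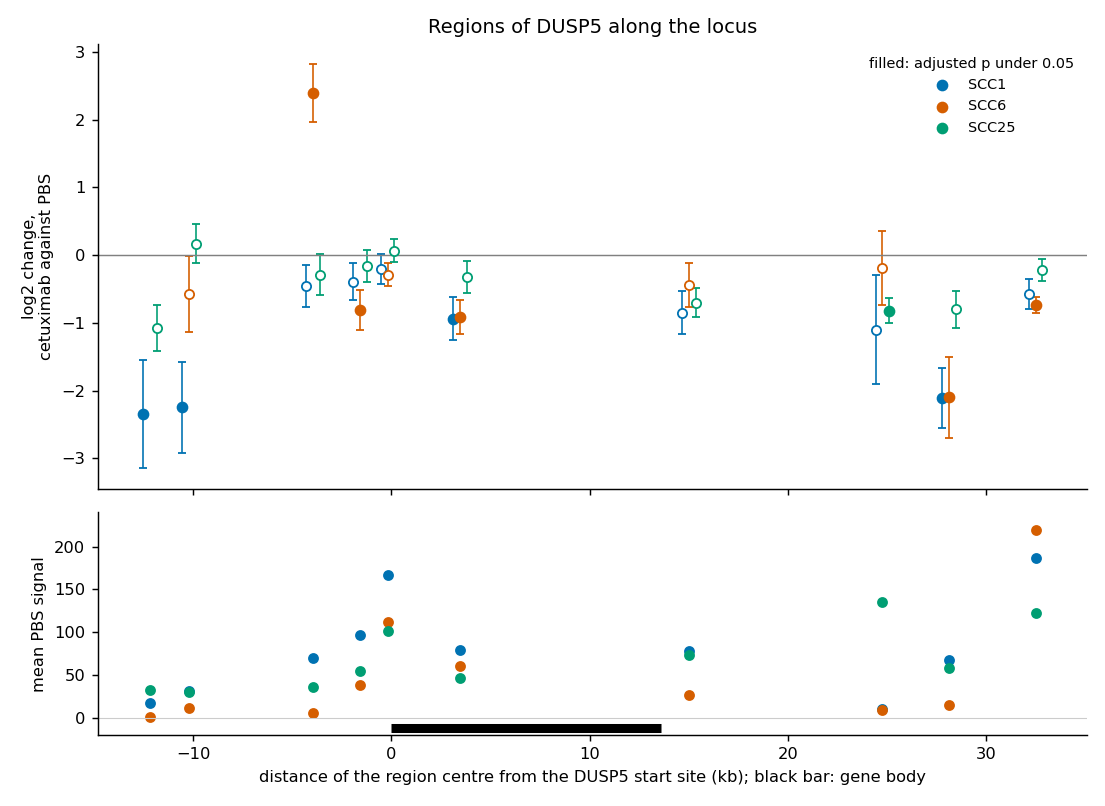
Upper panel, log2 change with cetuximab ± SE at each tested DUSP5 region in the 3 lines against distance from the start site in kb, filled where the adjusted p is under 0.05; lower panel, mean PBS signal per region, with a black bar for the gene body. The region 3.95 kb upstream is the only one above 0 in SCC6, and changes at 28.1 kb downstream are below 0 in every line.

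DUSP4 (ENSG00000120875, chr8:29190581-29208201, minus strand), a nuclear phosphatase gene induced by ERK, had 3 regions, and only its start-site region passed the filter on low values. That region was 27.3, 33.4 and 38.7 with cetuximab and 65.2, 43.5 and 54.4 with PBS in SCC6, with no overlap. It fell by 0.69 ± 0.25 on the log2 scale (1.62-fold lower, limma adjusted p = 0.0341), with 0.081 ± 0.39 in SCC1 (adjusted p = 0.932) and −0.25 ± 0.3 in SCC25 (adjusted p = 0.765). The SCC6 call was lost with the GC trend removed (adjusted p = 0.404) and without cetuximab replicate 1 (0.122), cetuximab replicate 2 (0.075), PBS replicate 1 (0.153) or PBS replicate 3 (0.0852).

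The other SPRED2 calls were mostly lower. At 64.9 kb downstream (chr2:65594709-65594970), by an alternative start site in an intron, the signal was 20.2, 23.2 and 22.8 with cetuximab and 50.7, 66.9 and 39.2 with PBS in SCC6, and 27.9, 31.1 and 31.3 against 54.6 and 77.0 in SCC1. Groups did not overlap in either line. The region fell by 1.18 ± 0.27 on the log2 scale in SCC6 (2.26-fold lower, limma adjusted p = 0.000833) and by 1.08 ± 0.36 in SCC1 (2.12-fold lower, adjusted p = 0.0309). The SCC1 call was lost without cetuximab replicate 1 (0.0799), PBS replicate 1 (0.137) or PBS replicate 3 (0.421). With median centring, quantile normalization or cyclic loess the region was not called in SCC1 either. Its change in SCC25 was −0.49 ± 0.27 (adjusted p = 0.454).

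At 54.8 kb downstream (chr2:65604771-65605178), by another alternative start site, SPRED2 fell in SCC1 from 194 and 173 with PBS to 128, 93.4 and 92.3 with cetuximab (log2 change −0.82 ± 0.23, 1.76-fold lower, adjusted p = 0.00776, limma). That call was lost without PBS replicate 1 (0.249) or PBS replicate 3 (0.091), and with median centring. In SCC6 the same region was low with and without treatment, 17.2 to 24.2, and its log2 change was 0.016 ± 0.32. At 49.5 kb downstream (chr2:65609994-65610436) SPRED2 fell in SCC6 from 210, 169 and 174 to 135, 109 and 114 (log2 change −0.62 ± 0.14, 1.54-fold lower, adjusted p = 0.000483). The main start-site region of SPRED2, at exon 1, was 52.5, 81.7 and 76.7 with cetuximab and 94.2, 97.0 and 105 with PBS in SCC6, and 126, 103 and 161 against 78.1 and 89.3 in SCC1. The groups did not overlap in either line, in opposite directions. It fell by 0.51 ± 0.19 on the log2 scale in SCC6 (1.42-fold lower, adjusted p = 0.0372), and the change of 0.61 ± 0.25 in SCC1 had an adjusted p of 0.0904, which became 0.0165 with median centring, 0.0326 with edgeR, 0.0133 with a replicate block and 0.0147 without cetuximab replicate 2. The SCC6 call was lost without cetuximab replicate 1 (0.243), PBS replicate 1 (0.0595), PBS replicate 2 (0.0927) or PBS replicate 3 (0.123), and with the GC trend removed (0.313).

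SPRED1 (ENSG00000166068, chr15:38545037-38649450, plus strand), the paralogue of SPRED2, had no called region in any single line with limma. Of its 6 regions tested in SCC6, 5 lay away from the start site, and their log2 changes ran from 0.024 to 0.67. Over all lines with the line as a covariate, 2 of its intronic regions, 82 kb and 87.5 kb downstream, were called higher (adjusted p = 0.0188 and 0.0448). Their SCC6 signals were 26.8 to 46.5 with cetuximab and 25 to 30.2 with PBS at 82 kb, and 31.4 to 47.5 against 20.7 to 35.0 at 87.5 kb, while the SCC1 and SCC25 libraries held 1 to 4 reads. With libraries thinned to the same depth neither passed (adjusted p = 0.479 and 0.488), nor with edgeR (0.122 and 0.205) or DESeq2 (0.145 and 0.21). The call at 87.5 kb was also lost when any of 10 single libraries was left out, in SCC1 cetuximab replicate 1 (0.0666) and PBS replicates 1 (0.0687) and 3 (0.0767), in SCC6 PBS replicates 2 (0.0896) and 3 (0.0576), and in SCC25 cetuximab replicates 1 (0.0881) and 3 (0.0707) and PBS replicates 1 (0.0886), 2 (0.0672) and 3 (0.0578).

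SPRY2 (ENSG00000136158, chr13:80910111-80915261, minus strand) and SPRY4 (ENSG00000187678, chr5:141689992-141706020, minus strand) encode Sprouty proteins, which bind components between the receptor and RAF. The region 9.17 kb upstream of SPRY2 (chr13:80924363-80924491) held 13, 18 and 54 reads with cetuximab and 1, 1 and 2 with PBS in SCC6, and was called higher (limma adjusted p = 0.000695). The PBS libraries are at or near the floor, so no fold is given. In SCC1 its signal was 16.5, 19.5 and 4.69 against 14.3 and 3.35, with overlap. The start-site region of SPRY4 was 190, 128 and 186 with cetuximab and 100 and 115 with PBS in SCC1, a log2 change of 0.62 ± 0.22 with an adjusted p of 0.0502, which passed the test under 8 of 17 alternatives. In SCC6 and SCC25 its changes were −0.24 ± 0.19 and −0.11 ± 0.2.

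ETV4 (ENSG00000175832, chr17:41605212-41656988, minus strand) and ETV5 (ENSG00000244405, chr3:185764103-185828107, minus strand) encode the ETS factors of the group. The ETV4 region 33.4 kb upstream, by an alternative start site, rose in SCC6, where its signal was 42.4, 42.7 and 48.6 with cetuximab and 30.2, 17.4 and 15.2 with PBS (2.16-fold, log2 change 1.11 ± 0.29, limma adjusted p = 0.00286). The groups did not overlap. In SCC1 and SCC25 its log2 changes were −0.42 ± 0.34 and 0.29 ± 0.28, and the interaction had an adjusted p of 0.0526. With limma no ETV5 region was called in a single line. Its start-site region had log2 changes of 0.22 in SCC1 (adjusted p = 0.322) and −0.16 in SCC6 (adjusted p = 0.131), and passed the test in SCC6 with edgeR (−0.22, adjusted p = 0.0346), with median centring (−0.33, 0.00255) and without PBS replicate 1 (−0.24, 0.0434), and in SCC1 with median centring (0.41, 0.0434), with a replicate block (0.36, 0.0261) and without cetuximab replicate 2 (0.36, 0.0254). Both ETV4 regions also lie in the extended body of DHX8. The ETV5 regions 0.162 kb upstream and 1.29 kb downstream overlap DGKG, and the extended body of PHLDA1 overlaps NAP1L1.

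PHLDA1 (ENSG00000139289, chr12:76419227-76425556, minus strand) had its smallest adjusted p in SCC6 at 5.99 kb downstream (chr12:76419418-76419725), in the UTR of exon 2, where the signal was 2.02, 4.64 and 5.29 with cetuximab and 20.5, 30.1 and 23.9 with PBS. Treated libraries were all far below PBS libraries. The region fell by 2.43 ± 0.48 on the log2 scale (5.38-fold lower, limma adjusted p = 9.51e-05). In SCC25 it was 56.2, 67.1 and 21.3 against 76.9, 75.7 and 68.7 (log2 change −0.75 ± 0.3, adjusted p = 0.271), and in SCC1 1.27, 5.84 and 1.56 against 9.11 and 12.3 (adjusted p = 0.163), in each case with no overlap. The treated libraries held 2, 5 and 16 reads in SCC6 and 1, 3 and 1 in SCC1, so the size of the SCC6 fold is uncertain.

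Over all lines, with the line as a covariate, 11 of 48 member regions were called by limma, 2 higher and 9 lower, against 5.14% and 7.04% of all regions tested. The leading ones were DUSP5 28.1 kb downstream (log2 change −1.64 ± 0.29, 3.11-fold lower, adjusted p = 0.00108), PHLDA1 5.99 kb downstream (−1.64 ± 0.31, 3.12-fold lower, adjusted p = 0.00188) and SPRED2 64.9 kb downstream (−0.9 ± 0.18, 1.87-fold lower, adjusted p = 0.0022). The 9 lower calls fell in DUSP5 (4), PHLDA1 (2), SPRED2 (2) and ETV5 (1). The ETV5 region, 73.6 kb downstream (−1.08 ± 0.26, adjusted p = 0.00966), falls outside the naming rule and was picked after its value was seen. The 2 higher calls were the SPRED1 regions with floor values in SCC1 and SCC25. With quantile normalization the split was 0 higher and 9 lower, and it was 0 higher and 11 lower with edgeR and with DESeq2.

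Of member start-site regions, limma called 2 of 17 in SCC1 (11.8%), both lower and both at the alternative SPRED2 start sites, and 4 of 18 in SCC6 (22.2%), 1 higher and 3 lower. Of all start-site regions tested, 14.7% were called in SCC1, 16.6% in SCC6 and 0.066% in SCC25. In SCC25 limma called 0 of 17, and 0 had an unadjusted p under 0.05, against 1527 of all 16675 start-site regions tested. There edgeR and DESeq2 each called 0 member start-site regions, with 1 under that unadjusted threshold. Among all start-site regions tested median log2 changes were 0.16 (SCC1), −0.1 (SCC6) and 0.013 (SCC25), against −0.17, −0.13 and −0.062 for those of the members. At the strongest start-site regions of DUSP6, SPRY2, SPRED1, ETV4, ETV5 and PHLDA1 no change passed the test with limma in any line, and log2 changes ran from −0.27 (SPRY2) to 0.37 (ETV4) in SCC1, from −0.38 (ETV4) to 0.14 (DUSP6) in SCC6 and from −0.2 (ETV5) to 0.22 (SPRY2) in SCC25. Beside the ETV5 calls given above, ETV4 (−0.55, adjusted p = 0.0286) and PHLDA1 (−0.35, adjusted p = 0.0291) passed in SCC6 with median centring, and ETV4 in SCC1 without cetuximab replicate 2 (0.57, adjusted p = 0.0479). Of the member regions away from start sites, 5 of 35 (14.3%), 14 of 31 (45.2%) and 1 of 31 (3.23%) were called in SCC1, SCC6 and SCC25, against 10.3%, 30.1% and 0.375% of all regions away from start sites.

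Levels at start sites were compared per length, taking for each gene the start-site region with the highest total signal. Of these 10 regions that of ETV5 had the highest mean PBS signal per 100 bases in every line and that of DUSP4 the lowest. At ETV5 it was 79.5 ± 3.06 (SD, n = 2) in SCC1, 91.1 ± 11.1 (n = 3) in SCC6 and 57.3 ± 5.42 (n = 3) in SCC25. SPRY2 was at 44.4 ± 0.427, 51.8 ± 2.24 and 33.0 ± 1.8, next among the 10. A shorter DUSP6 region at exon 1, 0.056 kb upstream, was not among the 10 and stood at 49.5 ± 3.45 in SCC1, 29.6 ± 4.15 in SCC6 and 35.6 ± 0.873 in SCC25, so that its mean was above that of SPRY2 in SCC1 and SCC25. DUSP4 was at 7.22 ± 0.687, 11.7 ± 2.34 and 6.53 ± 0.517, below the median of 18203 start-site regions of protein-coding genes, which was 14.4, 15.1 and 13.2. The libraries of ETV5 and SPRY2 did not overlap in any line, while DUSP4 overlapped its neighbour SPRY4 in SCC6, and SPRY2 overlapped PHLDA1 (28.6 ± 2.97) in SCC25. The middle of the order was close: in SCC1, SPRED1 at 24.5 ± 0.625, SPRED2 at 24.3 ± 2.31 and PHLDA1 at 22.6 ± 0.149 lay within or next to the spread of each other's libraries, and in SCC25 SPRY4 at 14.1 ± 3.03, SPRED1 at 12.4 ± 0.301 and ETV4 at 11.2 ± 2.56 did too.

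**Figure D4:**
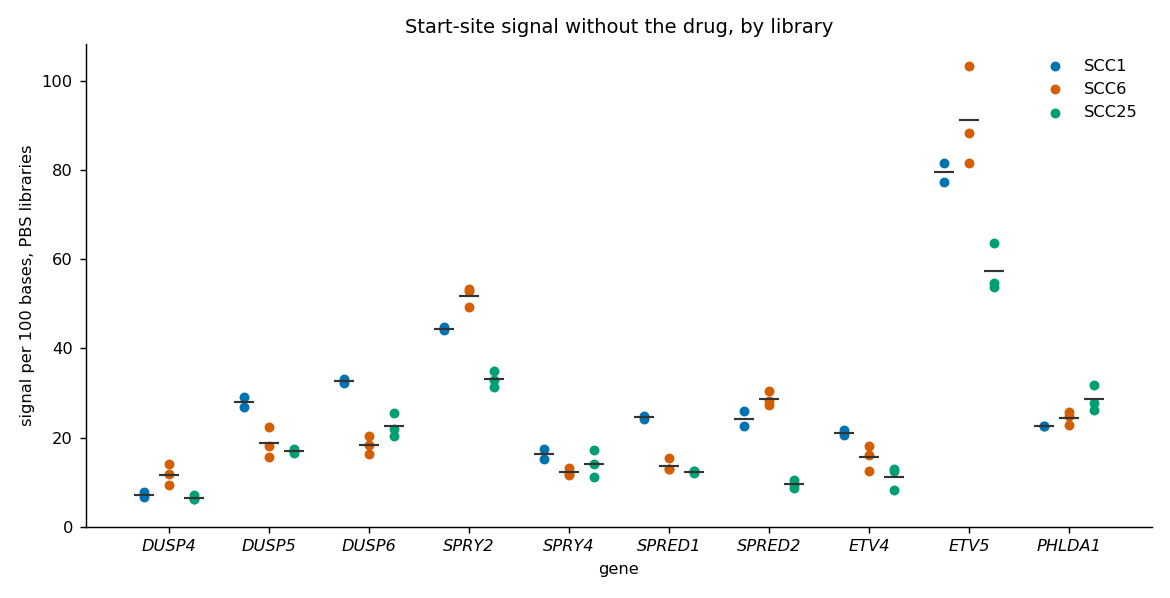
PBS signal per 100 bases at the strongest start-site region of each gene, 1 point per library, with a bar at the mean, in SCC1, SCC6 and SCC25. ETV5 is highest and DUSP4 lowest in each line, and the means of the other 8 genes lie between 9.55 and 51.8.

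Without cetuximab, in the PBS libraries of the same day, the lines differed at most of these regions. Between PBS libraries limma called 27 of 49 member regions for SCC6 against SCC1 (8 higher, 19 lower), 36 of 49 for SCC25 against SCC1 (6 higher, 30 lower) and 35 of 49 for SCC25 against SCC6 (16 higher, 19 lower), which is 55.1%, 73.5% and 71.4%, against 61.2%, 51.3% and 68.7% of all regions tested. With median centring, the median over all regions shifted on the log2 scale, from −0.036 to −0.27 for SCC25 against SCC1 and from 0.062 to −0.087 for SCC25 against SCC6, and the members then had 5 higher and 33 lower, and 15 higher and 22 lower. A wide contrast was seen 9.18 kb upstream of SPRY4, in SPRY4-AS1, where the SCC6 PBS signal was 149, 125 and 152 and the other PBS libraries were at 0.848 to 5.2 (adjusted p = 1.38e-07 against SCC1 and 4.95e-09 against SCC25). With cetuximab the SCC6 signal there was 209, 193 and 101, overlapping PBS (adjusted p = 0.561). SPRED1 13.2 kb downstream was likewise at 35.0, 36.8 and 45.7 in SCC6 PBS, against the floor of 1 read in both SCC1 PBS libraries (adjusted p = 1.54e-07).

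Of all 86315 regions tested, 19927 were lower and 24364 higher in SCC25 than in SCC1, and 26299 and 26528 in SCC6 than in SCC1. SPRED2 was lower in SCC25 than in SCC1 at 13 of 15 tested regions and higher at 1. At 54.8 kb downstream the PBS signal was 194 and 173 in SCC1, 24.2, 22.1 and 17.4 in SCC6 and 53.5, 51.9 and 55.1 in SCC25, with no overlap between any pair of lines (log2 difference −3.06 ± 0.22 for SCC6 and −1.76 ± 0.22 for SCC25, both against SCC1, adjusted p = 1.11e-08 and 1.04e-05). At 49.5 kb downstream SCC25 was lower than SCC1, with a log2 difference of −1.15 ± 0.14 (adjusted p = 8.54e-06). At 19.9 kb upstream the SCC6 signal was 58.0, 66.2 and 56.6, and SCC25 held 3.39, 1.44 and 2.54 (adjusted p = 9.91e-08). DUSP5 was lower in SCC6 than in SCC1 at 7 of 10 regions and higher at none of them with limma, and SCC25 exceeded both other lines at its region 24.8 kb downstream (log2 difference 3.66 ± 0.41 against SCC1, 12.7-fold, adjusted p = 3.33e-06, and 3.89 ± 0.36 against SCC6, 14.8-fold, adjusted p = 1.43e-07). At 12.2 kb upstream SCC25 PBS had a signal of 28.6, 33.9 and 33.1 and SCC6 PBS held 1 to 2 reads (adjusted p = 1.17e-07). PHLDA1 5.99 kb downstream was higher in SCC25 than in SCC1, 6.45-fold (log2 difference 2.69 ± 0.29, adjusted p = 2.61e-06).

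DUSP6 and its surroundings both differed between SCC6 and SCC1. All 4 tested DUSP6 regions were lower in SCC6, with a median log2 difference of −1.1, and so were 49 of the 75 tested regions within 1 Mb but outside the extended body, with 12 higher and a median of −1.13. For DUSP5 the members had a median of −1.4 and the 105 regions around it −0.33. For SCC25 against SCC1, 32 of the 72 tested regions around SPRED2 were lower and 12 higher (median −0.47, members −1.15). Around PHLDA1, 40 of 101 were higher and 7 lower in the same comparison (median 0.49, members 0.79).

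Summed over the regions of each gene, the signal at DUSP5 fell in all 3 lines. The sums were 531, 448 and 565 with cetuximab and 788 and 820 with PBS in SCC1, 312, 376 and 346 against 488, 496 and 507 in SCC6, and 506, 554 and 537 against 742, 648 and 682 in SCC25. No treated library reached its line's PBS libraries. Summed DUSP5 signal had a log2 change of −0.65 ± 0.14 in SCC1 (1.57-fold lower, limma adjusted p = 0.00548), −0.53 ± 0.09 in SCC6 (1.44-fold lower, adjusted p = 5.67e-07) and −0.37 ± 0.097 in SCC25 (1.3-fold lower, adjusted p = 0.0283), and the interaction had an adjusted p of 0.307. Of all genes tested, 21.5% were higher and 6.0% lower in SCC1, 13.3% higher and 15.8% lower in SCC6, and 0.0774% higher and 0.556% lower in SCC25. The SCC1 call was lost without PBS replicate 1 (adjusted p = 0.102) or PBS replicate 3 (0.0911), and the SCC25 call without any 1 of cetuximab replicate 1 (0.118), cetuximab replicate 3 (0.0539), PBS replicate 1 (0.356), PBS replicate 2 (0.117) and PBS replicate 3 (0.153).

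The tested DUSP5 regions had lower median changes than the regions around them, a difference given without a test. Their median log2 changes were −0.89 (SCC1), −0.57 (SCC6) and −0.31 (SCC25), and those of the regions within 1 Mb outside the extended body were −0.27, −0.027 and −0.14, over 104, 99 and 104 regions.

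With limma, 4 other genes changed in summed signal, all in SCC6. DUSP6 rose from 341, 363 and 352 to 479, 397 and 426 (log2 change 0.3 ± 0.092, adjusted p = 0.00835), while in SCC1 it was 696, 672 and 599 against 753 and 837 (−0.28 ± 0.13, adjusted p = 0.127). The interaction for DUSP6 passed the test (adjusted p = 0.00829), as it did for 37.2% of all genes tested. PHLDA1 fell by 0.38 ± 0.095 on the log2 scale (328, 307 and 311 against 400, 417 and 415, adjusted p = 0.000858) and SPRED2 by 0.23 ± 0.072 (727, 701 and 768 against 883, 870 and 825, adjusted p = 0.00876), and SPRED1 rose by 0.25 ± 0.1 on the log2 scale (404, 377 and 290 against 314, 276 and 302, adjusted p = 0.0491) with overlapping groups. The DUSP6 call was lost without cetuximab replicate 1 (0.0819), the SPRED2 call without cetuximab replicate 2 (0.0803) or PBS replicate 1 (0.0551), and the SPRED1 call without cetuximab replicate 1 (0.314), cetuximab replicate 2 (0.218), PBS replicate 1 (0.0565), PBS replicate 2 (0.227) or PBS replicate 3 (0.0933). The median change of the 9 tested members was −0.18, 0.038 and −0.14 in SCC1, SCC6 and SCC25, against 0.12, −0.035 and −0.015 over all genes tested.

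**Figure D5:**
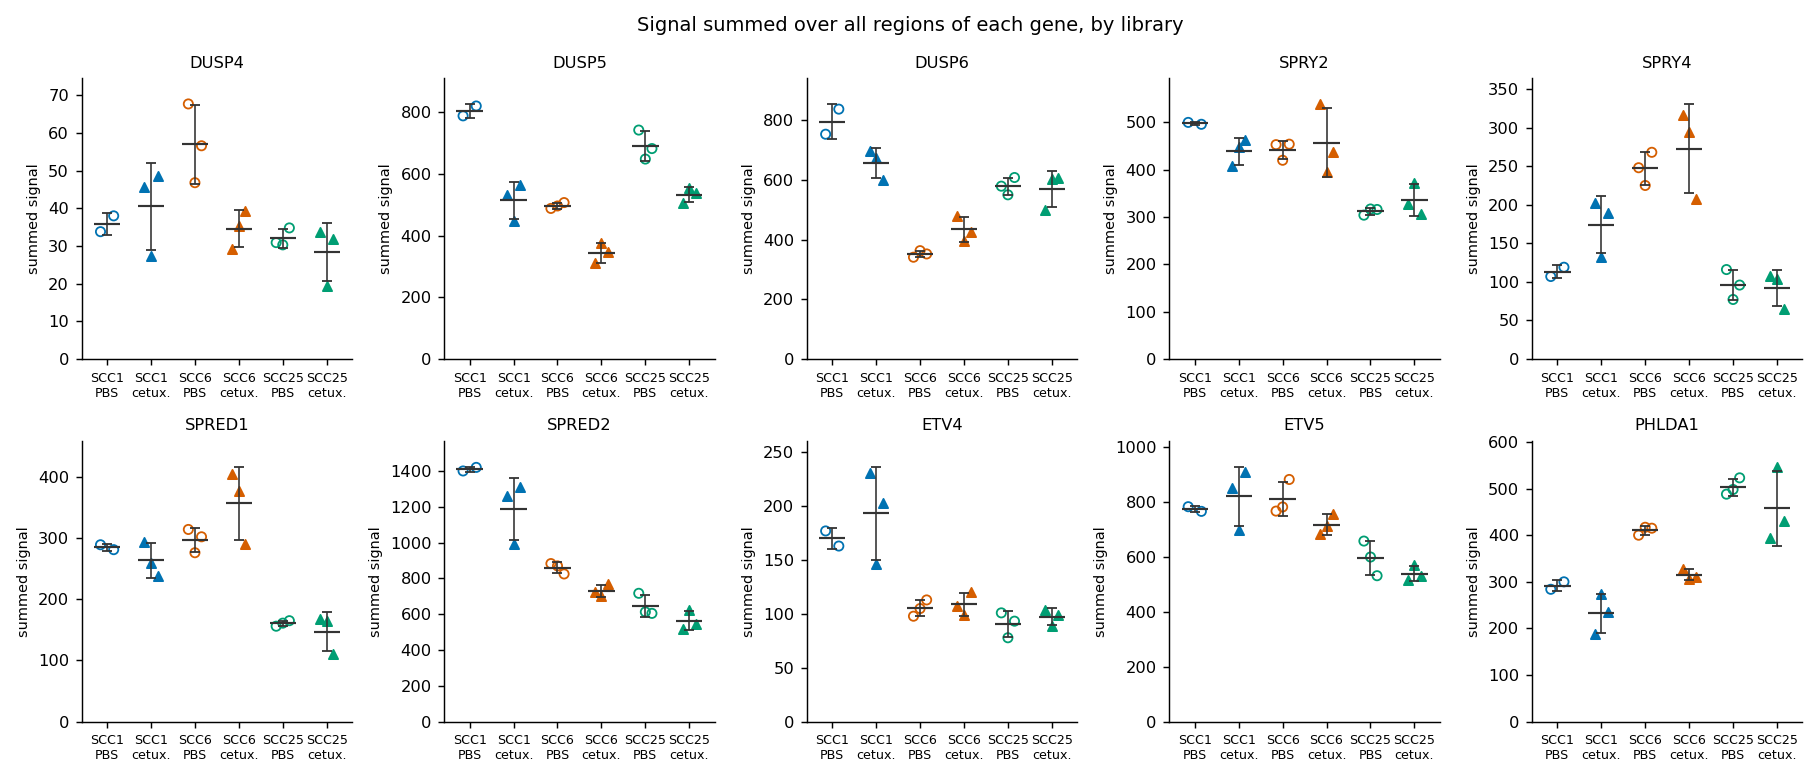
Signal summed over the regions of each of the 10 genes, 1 point per library, with PBS as open circles, cetuximab as filled triangles and bars for the mean ± SD. At DUSP5 triangles lie below circles in SCC1, SCC6 and SCC25, and at DUSP6 they lie above circles in SCC6 and below them in SCC1.

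The other genes of the pathway were followed as summed signal in 3 lists. Of the cascade genes, from the receptors to the ERK genes, 6 were higher and 2 lower of 19 tested in SCC1, 3 higher and 1 lower of 18 in SCC6, and none of 15 in SCC25, where 2 had an unadjusted p under 0.05 (limma). Over all genes tested, 21.5% were higher and 6.0% lower in SCC1, 13.3% and 15.8% in SCC6, and 0.0774% and 0.556% in SCC25. The counts of this list and of the 2 lists below are to be read against these shares. The shares are at an adjusted p under 0.05, and no share of all genes at an unadjusted p is given here. Median changes were 0.34, −0.016 and 0.03, to be read against 0.12, −0.035 and −0.015 over all genes. Leading cases in SCC1 were SHC1 (0.75, adjusted p = 0.00299), GRB2 (0.83, 0.00498), ERBB2 (0.67, 0.00708) and HRAS (0.82, 0.00775), adaptors, a receptor and a RAS gene. In SCC6 the scaffold gene KSR1 (0.69, adjusted p = 3.78e-17) and EGFR itself (0.39, adjusted p = 3.62e-10) rose, while EGFR fell by 0.28 ± 0.097 on the log2 scale in SCC1 (adjusted p = 0.0438, called in 7 of 13 settings) and had a log2 change of −0.16 ± 0.07 in SCC25 (adjusted p = 0.287).

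Of the further feedback genes, 3 were higher and 1 lower of 17 in SCC1, 2 higher and 5 lower of 16 in SCC6, and none of 17 in SCC25 (2 at an unadjusted p under 0.05), with medians of 0.051, 0.032 and −0.025. DUSP8 (1.17, adjusted p = 0.00359), SPRED3 (0.73, 0.022) and DUSP2 (0.65, 0.0289) rose and SPRY1 (−0.67, 0.037) fell in SCC1, and SPRY1 (−0.48, 0.00377), the RAS inhibitor gene RASA2 (−0.42, 4.29e-05) and DUSP1 (−0.38, 0.00134) fell and RASAL2 (0.31, 8.05e-05) rose in SCC6 (limma). Of the output genes, 6 were higher and 1 lower of 23 in SCC1, 0 higher and 8 lower of 22 in SCC6, and none of 23 in SCC25 (1 at an unadjusted p under 0.05), with medians of 0.36, −0.17 and −0.0069. The immediate early genes JUNB (1.01, 0.0029) and FOSB (0.94, 0.00857), the AP-1 gene FOSL1 (0.72, 0.0046) and the survival gene MCL1 (0.6, 0.00836) rose in SCC1, and FOSL1 (−0.42, 8.4e-06), PLAUR (−0.39, 0.000267), LIF (−0.26, 0.00351) and FOS (−0.29, 0.00866) fell in SCC6 (log2 change, limma adjusted p). The SCC1 splits depend on scaling: with median centring the median of all genes moved from 0.12 to −0.067, and the calls were 5 higher and 3 lower for the cascade, 2 higher and 5 lower for feedback and 5 higher and 5 lower for output. They also rest on single libraries. Without SCC1 PBS replicate 1 limma called 0 genes of the 3 lists in SCC1, and without SCC1 PBS replicate 3 it called 3, 1 and 2 in the cascade, feedback and output lists, all higher. Leaving out cetuximab replicate 3 gave 3, 1 and 3, all higher, and leaving out cetuximab replicate 1 gave 4 higher and 1 lower, 1 and 1, and 4 and 2. Without cetuximab replicate 2 there were 10 higher and 2 lower, 5 and 5, and 13 and 2, the same counts as with a replicate block. In SCC6 the 8 lower output calls became 5 without cetuximab replicate 2 or PBS replicate 1, and 1 with all libraries in 1 fit, where the feedback calls were 1 higher and 3 lower.

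The deposited peak lists were called in each library on its own. Only 4 of the 60 regions overlapped a peak in all 17 libraries, and all 4 were start-site regions, of PHLDA1, DUSP6, SPRY2 and ETV5. Of the 60, 30 had a peak in at least 1 SCC1 library, 49 in at least 1 SCC6 library and 43 in at least 1 SCC25 library, where the number of peaks per library ran from 13035 in SCC1 cetuximab replicate 2 to 101272 in SCC6 cetuximab replicate 3. In 15 regions peaks were found in SCC6 libraries and in no other line, 6 of them at SPRED1 and 3 at DUSP4, and in 7 in SCC25 alone. Of those 15, the DUSP4 regions 22.6 kb and 23.6 kb downstream and the SPRED1 region 59.2 kb downstream held only 1 to 4 reads in each SCC6 library in the region table, so that peak lists and table differ there. The same counts over all regions are not given here, so these cannot be called particular to the 10 genes. Peaks per library ran from 13035 to 36033 in SCC1, from 47441 to 101272 in SCC6 and from 18642 to 81963 in SCC25. The part of depth in these counts was not tested.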

How the data were processed

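ATAC-seq, which reads open chromatin through the cuts of a transposase, was measured in 17 libraries. The authors trimmed reads with Trim Galore 0.5.0, aligned them to hg19 (GRCh37) with Bowtie2 2.3.2, took out duplicates and mitochondrial reads (Picard 2.18) and poor alignments (SAMtools 1.9), called broad peaks per library with MACS2 and scored merged regions with DiffBind, whose settings are not given in the sources used here. The deposited region table holds a signal per library, the reads times 1 scaling factor set by the authors. Dividing a library's values by its smallest step gave read numbers, where the lowest is 1 because an empty region was entered as 1 read, and 100% of the values were whole within 0.001. The deposited peak lists hold fold enrichment as a ratio and −log10 p and q values, of which only peak positions were used.

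Regions were tested with limma 3.58.1 (R 4.3.3, trend and robust) on log2(signal + 1), without the 25% of regions with the lowest mean, so that fold changes of low regions are understated. Fits were made per line, over 17 libraries with an interaction, over all lines with the line as a covariate, and between PBS groups. Locus sums add the signal over a gene's regions, for 14214 genes tested, and their interaction test was added after seeing the data. Named regions are, per gene, the start-site region with the highest mean, and per comparison the called regions with the smallest adjusted p (up to 5 higher and 5 lower per line, 5 for the interaction, 3 and 3 over all lines, 2 and 2 between PBS groups), with 4 genes per pathway list. The members, the 3 pathway lists (63 genes) and the tests were chosen with earlier results of these data known.

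Depth was 2194851 to 15017130 reads in regions, and intervals cover these libraries only. Same-numbered replicates did not deviate together (8 pairs, correlations −0.0228 to 0.0399). On simulated counts with 200 changed regions (log2 change 2), the share recovered was 84% for SCC1, 95% for SCC6, 97.5% for SCC25 and 70.5% for the interaction. False calls were 7 of 175, 4 of 194, 4 of 199 and 7 of 148, and 26 of 215 for SCC6 against SCC1 PBS. The changed regions were drawn from those of higher signal, with a fixed dispersion of 0.05. Recovery of smaller changes or at low regions was thus not measured. Alternatives were other scalings, pseudocounts of 5 and 0.5, no filter, a replicate block, 1 fit for all libraries, edgeR 4.0.16 and DESeq2 1.42.0 on the recovered reads, removal of a GC trend, thinning, other gene extensions, and leaving out each library. Some genes of the marker and pathway lists are counted but not reported here by name.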

Additional observations from a re-analysis of the deposited data

Results flagged for a closer look

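The cetuximab effect differed between the lines by a test of the interaction itself, with limma and Benjamini-Hochberg adjustment, at 3 regions and 1 locus sum. The adjusted p was 4.38e-07 at DUSP6 18.4 kb upstream, where SCC6 rose, SCC1 fell and SCC25 had a log2 change of −0.007. It was 0.000107 at SPRED2 116 kb downstream and 0.000352 at DUSP5 3.95 kb upstream, where SCC6 rose and the changes in the other lines did not pass the test. For the summed signal of DUSP6 it was 0.00829. The same test called 3 of 48 member regions (6.25%), against 13.2% of all regions tested, and 37.2% of all genes tested.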

How the results depend on the processing

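Counts of called member regions depended on the setting as follows, and the cause was not tested. Where counts or changes ran from one value to another, each fit left out 1 library. In SCC1 the 7 calls became 4 without the filter, 12 with a replicate block, 4 with DESeq2, 3 with the GC trend removed and 3 with gene bodies extended by 5 kb, and ran from 0 to 13 when single libraries were left out. In SCC6 the 18 calls ran from 12 to 19, and were 13 to 25 under the other settings. In SCC25 the 1 call became 0 with median centring, cyclic loess, 1 fit for all libraries, the GC trend removed or 5 kb, and 2 with edgeR, with 0 to 1 when libraries were left out. The 3 interaction calls became 9 with median centring, 5 with quantile normalization, cyclic loess or thinning, 7 with a pseudocount of 5, 11 with edgeR, 10 with DESeq2, 4 with a replicate block and 6 with 50 kb, and ran from 3 to 8, with 8 without SCC1 cetuximab replicate 2 and 5 without replicate 3 of SCC6 or SCC25 cetuximab. Over all lines the 11 calls ran from 9 to 12, and were 0 without the line as a covariate and 8 to 16 under the remaining settings. Between PBS groups the 27, 36 and 35 calls ran from 23 to 28, 27 to 32 and 34 to 35, and were 18 to 44, 27 to 47 and 24 to 51 under the other settings, where SCC6 against SCC1 had 44 with 50 kb. For locus sums, the 1 SCC1 call became 5 with median centring, 3 with quantile normalization or cyclic loess, 4 with a replicate block and 5 with 1 fit, and ran from 0 to 4, the 5 SCC6 calls became 3 with 1 fit and ran from 3 to 7, and the 1 SCC25 call became 0 with a replicate block or 1 fit and ran from 0 to 1. Replicates share only a number, so the block is a setting and not a pairing (with it the DUSP5 sum in SCC25 had an adjusted p of 0.0645 and the SPRED1 sum in SCC6 of 0.0516, limma). In SCC1 no PBS library here has the number 2, so the block takes cetuximab replicate 2 out of the estimated change. For SCC1 the block and leaving out that library are thus not separate alternatives. Signs turned only where a change was uncalled. With the GC trend removed the log2 changes became 0.02 (DUSP5, SCC6) and −0.11 (DUSP5, SCC25), 0.12 and −0.14 (PHLDA1, SCC6 and SCC25), 0.23 (SPRY2, SCC6), −0.097 (ETV4, SCC25), −0.022 (SPRED2, SCC25), −0.069 and 0.097 (ETV5, SCC1 and SCC6) and −0.35 (DUSP4, SCC1), all at start-site regions. With median centring they became 0.11 (PHLDA1, SCC1), 0.014, −0.039 and 0.016 (DUSP6, SCC1, SCC6 and SCC25), 0.016 and −0.17 (SPRED1, SCC1 and SCC6), and −0.025 and −0.11 for the locus sums of ETV4 and ETV5 in SCC1. Quantile normalization gave 0.0065 at DUSP6 in SCC25, and 0.011 (DUSP6, SCC25) and −0.068 (ETV4, SCC1) for locus sums. Cyclic loess gave 0.013, 0.011 and −0.052 for the same. For DUSP6 in SCC25 edgeR gave 0.02 and DESeq2 0.024. For SPRED1 in SCC6 edgeR gave −0.057, DESeq2 −0.093 and thinning −0.11. For PHLDA1 in SCC1 DESeq2 gave 0.026 and thinning 0.0014, and for DUSP4 in SCC1 thinning gave −0.026. When single libraries were left out, the start-site changes ran from −0.052 to 0.23 (DUSP5, SCC25), −0.15 to 0.042 and −0.14 to 0.085 (PHLDA1, SCC1 and SCC25), −0.13 to 0.035 (DUSP6, SCC25), −0.18 to 0.03 (SPRY2, SCC6), −0.039 to 0.085 and −0.28 to 0.053 (SPRED1, SCC6 and SCC25), −0.19 to 0.12 (ETV4, SCC25), −0.11 to 0.21 (SPRED2, SCC25), −0.27 to 0.11 (SPRY4, SCC25) and −0.069 to 0.37 (DUSP4, SCC1). Locus sums ran from −0.077 to 0.064 (DUSP6, SCC25), −0.086 to 0.14 (SPRY2, SCC6), −0.22 to 0.15 (SPRY4, SCC25), −0.25 to 0.049 (SPRED1, SCC25), −0.028 to 0.11 and −0.00038 to 0.18 (ETV4, SCC6 and SCC25) and −0.0046 to 0.19 (ETV5, SCC1).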
